A study of Mus musculus with 388 samples.

Results

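Lepr-positive stromal cells of mouse bone marrow differed widely in the transcripts of Ccl2, Tnfaip3, Nr4a1 and Myc, and the cells with most of these transcripts are compared here with the cells with least. The cells compared were 57 high-score and 57 low-score cells out of 388 in the series. Of the 388, 189 belong to order 2 of the cell titles, and 172 of these had at least 10000 counts and Lepr, the leptin receptor gene that marks this stroma, at 1000 CPM (its counts scaled to a common cell total) or more. None of the 189 fell below the count minimum (0 cells) and 17 fell below the Lepr minimum. Each of the 172 cells was given a score, the mean of log2(CPM + 1) of the 4 genes. The highest-scoring 57 cells form the high-score group and the lowest-scoring 57 the low-score group, with 58 cells between them. The groups were thus chosen by measured values, and the 4 scoring genes and Lepr are given only as a description and are left out of all counts of genes.

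All cells came from C57BL/6 mice, 2 months old, of the genotype KitMerCreMer; R26tdTomato, in which tamoxifen given at E12.5 and E14.5 of embryonic life lets a Cre recombinase under Kit control switch on a red reporter. The sorting gate kept PDGFRα-positive cells without the blood, erythroid and endothelial surface proteins CD45, Ter119 and CD31. Cells of the sets N1 and N2 were Tomato- and cells of P1 and P2 were Tomato+. All of them carried both alleles and had seen tamoxifen, so Tomato- means only that no reporter was detected. No label names an animal or explains the numbering of orders and sets, and each sample is 1 cell. The sets are therefore the only replicate-like unit, no test was made, and every difference below is a description of these cells.

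NF-kB is a family of transcription factors held in the cytoplasm by inhibitor proteins and released by cytokine and pattern receptors. It switches on chemokine genes such as Ccl2 and, in a negative feedback, its own inhibitors, among them Tnfaip3 and Nfkbia. Nr4a1, Fos, Fosb, Egr1 and Myc are immediate early genes, transcribed within minutes of a signal without new protein synthesis. In adult marrow, Lepr-positive stroma is the main source of the niche factors CXCL12 and KIT ligand (Kitl), which hold and sustain haematopoietic stem cells. Tissue digestion and sorting are also known to induce immediate early genes in many cell types.

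High-score and low-score cells differed little in depth, and all 4 sets contributed to both groups. The median total was 637863 counts in high-score cells (range 285432 to 1437640) and 598431 in low-score cells (154609 to 1224750). Over the 172 cells the Spearman correlation of the score with total counts was 0.057. High-score cells had fewer genes with a count, with a median of 4411 against 4781, and the correlation of this number with the score was -0.228. Median mitochondrial shares were 0.688% and 0.778%. The high-score group held 24 cells of N1, 18 of N2, 8 of P1 and 7 of P2, and the low-score group 19, 21, 9 and 8. Tomato+ cells made up 26.3% of high-score cells (exact Clopper-Pearson 95% interval 15.5 to 39.7%) and 29.8% of low-score cells (18.4 to 43.4%), beside 27.3% of all 172. Cells of 1 set are not independent, so these shares are a description and were not compared by a test. Intervals on shares of cells and on summed counts cover counting error only, because amplified reads that carry no molecular identifier can stem from 1 molecule.

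Scores ran from 3.80 to 12.16 with a median of 9.37 and no empty stretch at either boundary. The lowest score among high-score cells was 10.17 and the next cell below it had 10.15. The highest score among low-score cells was 7.999 and the next cell above it had 8.14. Set medians were 9.45 in N1, 8.90 in N2, 9.52 in P1 and 9.38 in P2. The cuts between the groups thus fall at no gap in the score. Whether the cells form separate classes was not tested, and a mean of 4 genes can hide steps in a single gene.

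**Figure D1:**
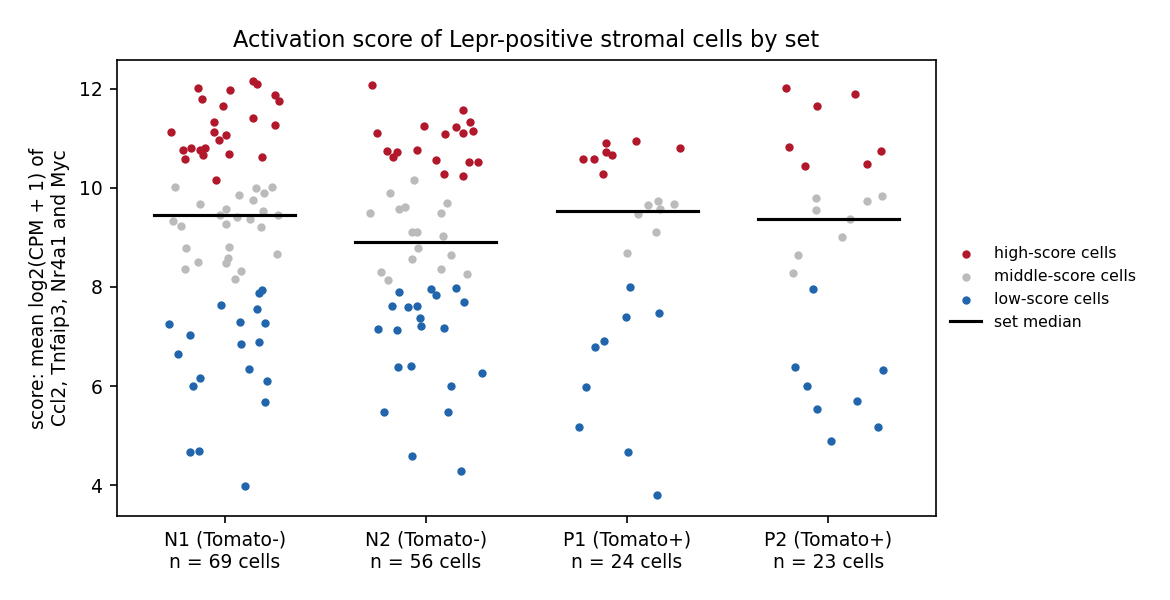
Score of each of the 172 cells, the mean log2(CPM + 1) of Ccl2, Tnfaip3, Nr4a1 and Myc, by set. Each point is 1 cell, red for high-score, grey for middle and blue for low-score cells, and black lines are set medians. All 4 sets spread over both ends, with medians between 8.90 and 9.52.

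Ccl2, the monocyte-attracting chemokine, ran from 410 to 32880 CPM in high-score cells with a median of 6291, and from 17.1 to 4695 CPM in low-score cells with a median of 129. Tnfaip3, which encodes the NF-kB inhibitor A20, had a median of 500.3 CPM (52.6 to 2964) against 2.5 CPM (0 to 472). For Nr4a1, an orphan nuclear receptor, the medians were 4503 and 1015 CPM with ranges of 150 to 19111 and 15.6 to 17434. Myc, the growth-promoting transcription factor, had medians of 2017 and 117 CPM (21 to 9390 and 1.3 to 2924). Single cells overlapped between the groups for all 4 genes, most of all for Nr4a1.

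The 4 genes varied together only loosely. Their 6 pairwise Spearman correlations over the 172 cells lay between 0.178 and 0.414, with a median of 0.250. When each gene was left out of its own score and compared between the top and bottom cells of a score made of the other genes, summed Tnfaip3 was 7.5-fold higher, Ccl2 4.93-fold and Myc 3.15-fold. Summed Nr4a1 was only 1.69-fold higher, at 4141 against 2448 CPM, and in P1 it was lower, at 0.65-fold with 7 against 8 cells. Nr4a1 therefore went least with the other genes of the score, and the groups are called here by the score and not by NF-kB or Nr4a1 activation.

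Every other gene was compared through its counts added up within each group and expressed as summed CPM, by the log2 ratio of summed CPM + 1 in high-score over low-score cells. Here higher and lower mean a ratio of 2-fold or more, in a gene that reached 20 CPM and was detected in 20% of the cells of its higher group. By this rule 6402 genes were measured, of which 294 (4.59%) were higher and 607 (9.48%) lower in high-score cells. The median log2 ratio of all measured genes was -0.17. The excess of lower genes lies among rarer transcripts: among the 1508 genes at 100 CPM or more over all 172 cells, 67 (4.44%) were higher and 9 (0.597%) lower, with a median of -0.05.

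NF-kB target genes were higher in part, led by chemokines and the inhibitor Nfkbia. Of 14 measured genes of NF-kB feedback and regulation, 2 were higher and 1 lower, with a median log2 ratio of 0.24. Among all measured genes 4.59% were higher and 9.48% lower. These shares are the background for this and the other gene groups below, and no group was tested against them. Nfkbia encodes IkBα, the inhibitor that retains NF-kB in the cytoplasm. Its median per cell was 2520 CPM in high-score cells (137 to 6182) and 649 CPM in low-score cells (23.5 to 4651). Summed by set, Nfkbia was at 2289 CPM in high-score against 684 CPM in low-score cells of N1, 2309 against 1112 in N2, 2835 against 675 in P1 and 3223 against 795 in P2. The lowest high-score set was above the highest low-score set, and over all sets the level was 2493 CPM (exact Poisson interval 2477 to 2509) against 886 CPM (876 to 896), a log2 ratio of 1.49. Its Spearman correlation with the score was 0.575 over 172 cells and 0.526 to 0.729 within sets. The atypical inhibitor Nfkbiz was at 523 against 226 CPM, a log2 ratio of 1.20, and was also separated between the groups in all 4 sets. Traf2, an adaptor of TNF receptors, was lower at 15.9 against 43.6 CPM (-1.40).

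NF-kB subunits and kinases gave 1 higher gene of 9 measured, Rel, beside 4.59% of all measured genes, and a median of 0.23. Summed Rel, the c-Rel subunit, was at 111 against 45.6 CPM, a log2 ratio of 1.27, with sets overlapping between the groups. Nfkb1 was at 78.3 against 44.6 CPM (0.80), under the 2-fold limit and in the opposite direction in P1. Of 14 measured receptors and adaptors of inflammatory signals none was higher (0 genes) and 1, Tlr3, was lower at 7.6 against 34.2 CPM, with a median of -0.01. The TNF receptor Tnfrsf1a was at 522 against 360 CPM (0.54) and higher in direction in all 4 sets.

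Inflammatory chemokines gave 4 higher and 0 lower genes of 9 measured, with a median of 0.56. Ccl7 attracts monocytes as Ccl2 does and lies beside it on chromosome 11, with 8.26 kb between the genes (GENCODE M21 on GRCm38, Ccl2 at 82035571 to 82037453 and Ccl7 at 82045712 to 82047525). Ccl7 had a median of 248 CPM per cell in high-score cells (1.7 to 7141) and 7.4 CPM in low-score cells (0 to 950.4). Its summed level was 624 against 79.7 CPM in N1, 922 against 143 in N2, 992 against 23.2 in P1 and 2422 against 9.4 in P2. The groups did not overlap by set, and the overall log2 ratio was 3.53. Cxcl1, a neutrophil attractant, had a median of 318 CPM (1.1 to 8826) against 13.4 CPM (0 to 2195). By set, summed Cxcl1 was at 1255 against 62.8 CPM in N1, 1301 against 236 in N2, 575 against 29.1 in P1 and 1832 against 353 in P2. Again no low-score set reached a high-score set, with 1278 CPM (interval 1267 to 1290) against 181.3 CPM (177 to 186) overall and a log2 ratio of 2.81. In P1, however, the median high-score cell had 14.4 CPM of Cxcl1 against 10.7 CPM in low-score cells, so that set's difference rested on few cells.

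Cxcl2, the paralog of Cxcl1 that lies 10.8 kb from it on chromosome 5, was found in fewer cells. It had a count in 31.6% of high-score cells (19.9 to 45.2%) and in 14% of low-score cells (6.3 to 25.8%). A single cell held 66% of its counts in high-score cells (here and below, such a share is taken within the group with the higher level), and the log2 ratio was 5.93 with this cell and 4.42 without it. The size of this ratio also depended on the settings, with 4.12 without N1, 3.46 with the split made within each set, 3.88 at a Lepr minimum of 2000 CPM and 1.89 with a score made without Ccl2. Cxcl9, an interferon-induced T cell attractant, passed 2-fold at 187 against 73 CPM, but without the top high-score cell its log2 ratio was 0.08, and without N1 it was 0.06. The related Cxcl10 was at 288 against 194 CPM (0.56).

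The start regions of Cxcl1, Cxcl2 and Nfkbia are shown because all 3 genes hold a match to the kappa-B consensus, the letters that NF-kB dimers bind. Each line gives the 160 bases before the gene's GENCODE start, from RefSeq's promoter sequence on GRCm38.p6, 5′ to 3′ on the gene's strand, with the match in capitals. The windows are chr5:90891081-90891240 on the plus strand, chr5:90903711-90903870 on the plus strand and chr12:55492648-55492807 on the minus strand.
Cxcl1: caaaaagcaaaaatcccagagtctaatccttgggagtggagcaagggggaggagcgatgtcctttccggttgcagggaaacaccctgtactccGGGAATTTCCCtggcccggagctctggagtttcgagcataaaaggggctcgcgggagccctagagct
Cxcl2: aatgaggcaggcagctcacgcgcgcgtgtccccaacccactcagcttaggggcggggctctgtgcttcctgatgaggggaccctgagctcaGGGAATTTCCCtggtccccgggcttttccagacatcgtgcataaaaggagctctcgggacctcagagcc
Nfkbia: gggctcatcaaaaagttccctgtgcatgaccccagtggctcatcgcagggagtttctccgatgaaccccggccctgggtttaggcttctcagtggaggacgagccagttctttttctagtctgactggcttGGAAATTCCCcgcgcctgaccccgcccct
In Cxcl1 and Cxcl2 the capitals are the same letters and hold 2 overlapping matches, 1 on each strand, ending 61 and 60 bases before the RefSeq start of Cxcl1 and 87 and 86 before that of Cxcl2. Nfkbia holds 1 match, 19 bases before its start. Over 250 bases upstream and both strands, 8.23% of 27025 genes with a RefSeq promoter held the consensus, and 10.8% of the 5072 measured genes found there did. The share was 16% of 219 higher genes (35 genes), 6.78% of 472 lower genes (32 genes) and 19.6% of 51 higher genes at 100 CPM or more (10 genes). Among list members, higher or not, it was 4 of 7 chemokines with a promoter entry and 5 of 12 genes of NF-kB feedback. Of the chemokines with a match, Cxcl1 and Cxcl2 were higher, and Ccl9 and Cxcl10 were not. Of the feedback genes with a match, Nfkbia was higher, and Nfkbie, Tnip1, Cyld and Tank were not. The NBRE letters AAAGGTCA, which NR4A receptors bind as monomers, were found in 3 of 219 higher genes (1.37%) in 0.927% of measured genes and in 1.55% of all genes with a promoter. The MYC E-box CACGTG was found in 12.3% of higher genes, 14.6% of lower genes, 11% of measured genes and 6.86% of all. The cyclic AMP element TGACGTCA was found in 4.11% of higher, 3.31% of measured and 1.77% of all genes, and the CArG box of serum response factor in 1.37%, 1.54% and 1.62%. These are matches of letters, not bound sites.

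**Figure D2:**
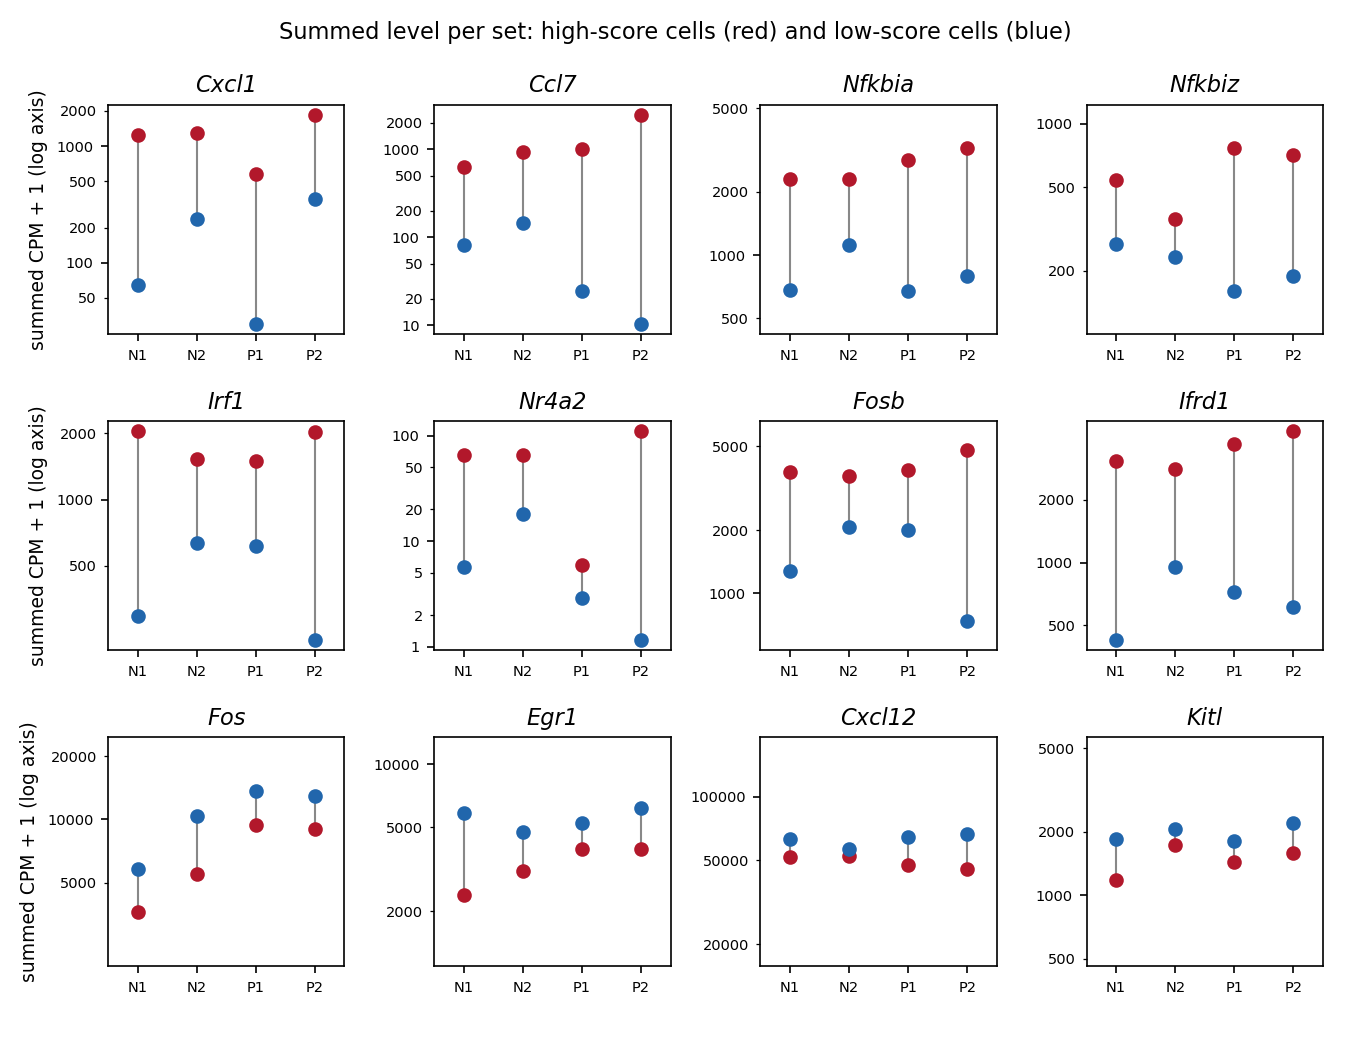
Summed CPM + 1 on a log axis for 12 genes in each set, red for high-score and blue for low-score cells. For Cxcl1, Ccl7, Nfkbia, Nfkbiz, Irf1, Fosb and Ifrd1 every red point lies above every blue point, and for Fos, Egr1, Cxcl12 and Kitl the blue point is the higher one in each set.

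Inflammatory cytokines and effectors gave 4 higher and 0 lower genes of 18 measured, and all 18 lay above 0, with a median of 0.64. The median of all measured genes was -0.17, so most of them lay below 0. Irf1 encodes a transcription factor that links NF-kB and interferon signals. Its median per cell was 1338 CPM (2.1 to 7474) in high-score and 215 CPM (5.2 to 2727) in low-score cells. Summed Irf1 was at 2037 against 295 CPM in N1, 1520 against 632 in N2, 1503 against 613 in P1 and 2015 against 231 in P2, so the groups did not overlap by set, and the log2 ratio was 1.93. Tnfaip6, a secreted hyaluronan-binding protein with anti-inflammatory action, was at 144 against 34.5 CPM (2.02). Gadd45a, a stress gene, passed 2-fold at 23.3 against 10.3 CPM, with sets in both directions. Ptgs2, the prostaglandin-producing cyclooxygenase, passed with a log2 ratio of 4.65, but 1 cell held 82.3% of its counts, with a score made without Ccl2 its ratio was -1.03, and without N2 it was 0.58. The adhesion molecule Vcam1, a standing product of this stroma, was at 7443 against 4829 CPM (0.62) and separated by set. Il6 did not pass 2-fold, with 177 against 113 CPM and 42.5% of its counts in 1 cell.

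NR4A genes and other immediate early genes, mostly transcription factors, gave the most higher genes of any group. They were 10 of 23 measured with 0 lower and a median of 0.80, beside 4.59% higher among all measured genes. Of the 10, 9 had the same sign in all 4 sets, beside 161 of all 294 higher genes (2.51% of measured genes). Both relatives of Nr4a1 were among them. Nr4a2 was at 64.3 against 8.9 CPM, a log2 ratio of 2.72, and had a count in 52.6% of high-score cells (39 to 66%) and 31.6% of low-score cells (19.9 to 45.2%). Nr4a3 was at 148 against 39.3 CPM (1.89). Sets overlapped between the groups for both, and Nr4a2 in P1 reached only 4.9 against 1.9 CPM. The other higher members were Csrnp1 (1.91), Ier5 (1.73), the small Maf factor Mafk (1.73), Arc (1.39), Nfil3 (1.33), Atf3 (1.3), Fosb (1.26) and Klf2 (1.05), all on the log2 scale. Arc does not encode a transcription factor. Its median per cell was 4.2 against 1.8 CPM, 1 cell held 24.7% of its counts, and its sets overlapped.

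Fosb and its relative Fos went in opposite directions. Fosb had a median of 3605 CPM per cell (27.5 to 10512) in high-score and 1265 CPM (6.4 to 6424) in low-score cells. By set, summed Fosb was at 3772 against 1284 CPM in N1, 3615 against 2059 in N2, 3871 against 2001 in P1 and 4792 against 741 in P2. Every high-score set was above every low-score set, and the score correlated with Fosb at 0.504 over the 172 cells. Fos, whose protein pairs with JUN as FosB does, had a lower median in high-score cells, 3046 CPM (88.4 to 25698) against 6773 CPM (60 to 30670). By set, summed Fos was at 3620 against 5838 CPM in N1, 5479 against 10418 in N2, 9384 against 13704 in P1 and 9036 against 12898 in P2. The low-score cells were the higher ones in each set, although the sets overlapped. Egr1, a zinc finger factor of the same early wave, had medians of 2196 CPM (78 to 11039) and 4959 CPM (143 to 12913). Summed Egr1 was at 2384 against 5873 CPM in N1, 3116 against 4757 in N2, 3964 against 5231 in P1 and 3968 against 6193 in P2, so all 4 low-score sets lay above all 4 high-score sets.

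The summed log2 ratios were -0.80 for Fos and -0.82 for Egr1, short of the 2-fold limit in both cases. Spearman correlations with the score were -0.198 for Fos and -0.356 for Egr1, and within sets they ran from -0.203 to -0.079 and from -0.439 to -0.039. Against the scoring genes one at a time, Egr1 went most against Ccl2 (-0.406) and least against Nr4a1 (-0.077). Junb stood with Fosb at 3892 against 2225 CPM (0.81), above in all 4 sets. Cells with high scores were thus not in general the cells with most Fos and Egr1.

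**Figure D3:**
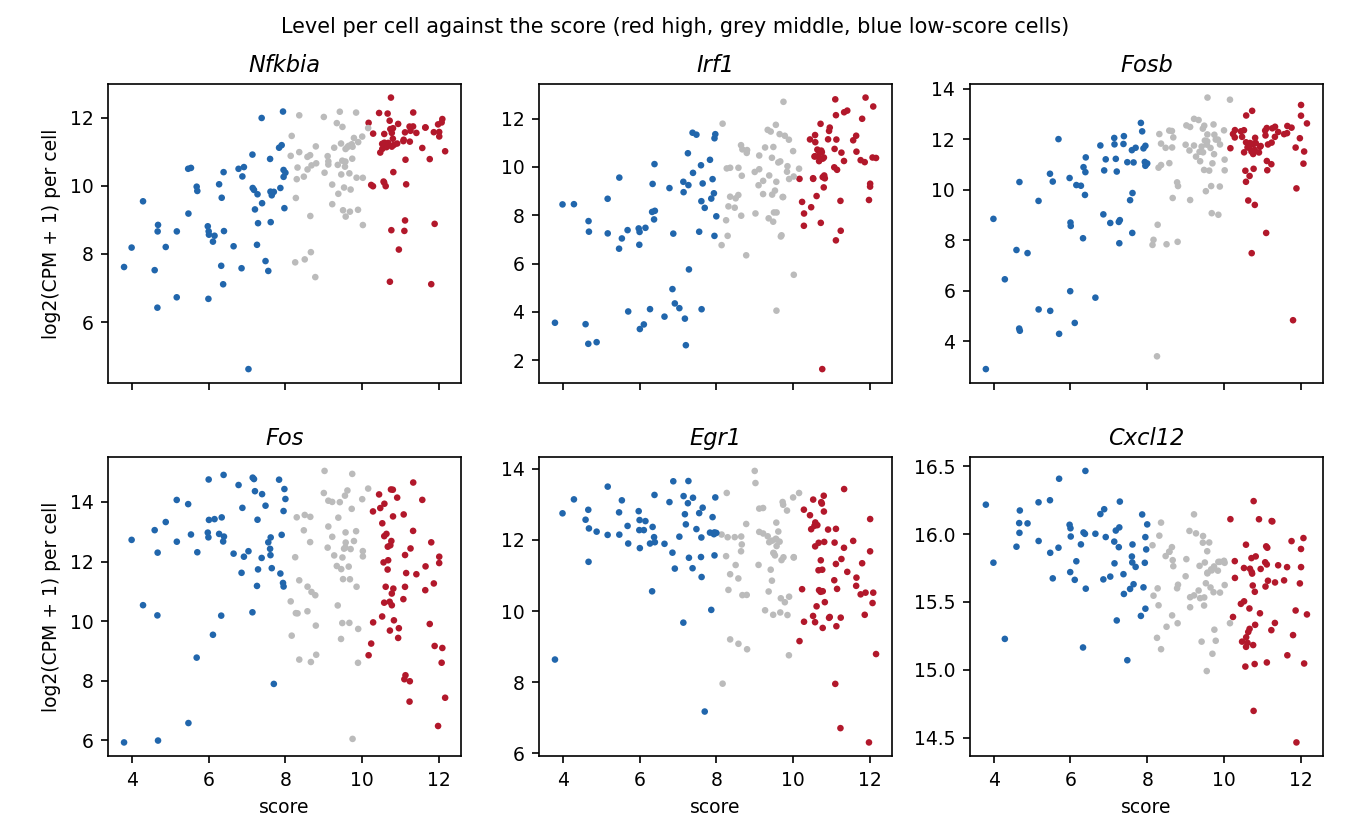
Level of 6 genes in each of the 172 cells, as log2(CPM + 1), against the score, with high-score cells in red, middle cells in grey and low-score cells in blue. Nfkbia, Irf1 and Fosb lie higher towards high scores, with correlations of 0.575, 0.548 and 0.504, while Fos, Egr1 and Cxcl12 lie lower, at -0.198, -0.356 and -0.380.

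Feedback genes of immediate early signalling followed the early genes, with 9 higher and 0 lower of 22 measured and a median of 0.62, and all 9 had the same sign in all 4 sets. They were the kinase phosphatases Dusp4 (2.35) and Dusp10 (1.66), the G protein regulator Rgs2 (2.14), Phlda1 (1.56), the kinases Sik1 (1.45) and Pim1 (1.24), the pseudokinase Trib1 (1.36), the mRNA-destabilising Zfp36 (1.16) and the antiproliferative Btg2 (1.05). Zfp36, which shortens the life of cytokine mRNAs, was at 4518 against 1134 CPM in N1, 3061 against 2175 in N2, 3131 against 1736 in P1 and 3053 against 924 in P2. These high-score and low-score sets did not overlap. Dusp6, a phosphatase that follows ERK activity, was at 146 against 214 CPM (-0.55) with sets in both directions.

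Genes of the MYC network and its targets gave fewer calls, with 5 higher and 1 lower of 23 measured and a median of 0.30. The nucleolar methyltransferase Fbl was at 38.3 against 9.5 CPM (1.91) and the polyamine enzyme Odc1 at 145 against 69.5 CPM (1.05), both with the same sign in all 4 sets. The chaperonin Hspd1 (1.49), Rrp9 (1.08) and Gnl3 (1.04) passed 2-fold with sets in both directions, and without N1 Rrp9 was at 0.45 and Gnl3 at -0.011. Mxi1, a MYC antagonist, was lower at 21.5 against 46.1 CPM (-1.06). The score contains Myc itself, and 15 of the 23 members lay above 0, beside a median of -0.17 over all measured genes.

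Heat shock and chaperone genes gave 5 higher and 0 lower of 13 measured, with a median of 0.74. Dnajb4 (1.17) and Dnajb1 (1.12), both co-chaperones of HSP70, and Hspe1 (1.10) had the same sign in all 4 sets, with Hspe1 at 0.51 without N1. The small heat shock gene Hspb1 was at 2204 against 499 CPM in N1, 2164 against 619 in N2, 849 against 1987 in P1 and 5075 against 513 in P2. It was higher in 3 sets and lower in P1, and Hsph1 had the same signs in the 4 sets. Hspa1a and Hspa1b are near-identical copies whose reads may be split between them, and neither passed 2-fold. Of 11 genes of the integrated stress and unfolded protein responses, 1 was higher, Sesn2 at 93.5 against 37.7 CPM (1.29, and 0.74 without P2), and the median was 0.30. Since heat shock and immediate early genes are both known to respond to cell handling, their levels stand beside the score as measured, and the part of handling was not tested.

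Niche factors and identity genes of the stroma were found in both groups, at a somewhat lower summed level in high-score cells. The 26 genes of the list, Cxcl12 included, summed to 111272 CPM (99317 to 116105 over the sets) against 132034 CPM (129651 to 138603). Of 25 measured members, 1 was higher and 1 lower, with a median of -0.27. The median was -0.17 over all measured genes and -0.05 over genes at 100 CPM or more. Cxcl12 had a median of 50930 CPM (22609 to 77541) in high-score cells and 61434 CPM (34404 to 90479) in low-score cells. By set, summed Cxcl12 was at 51610 against 63463 CPM in N1, 52335 against 56618 in N2, 47527 against 64596 in P1 and 45634 against 66472 in P2. Each high-score set lay below each low-score set, a 1.21-fold difference, and the correlation with the score was -0.380. Without the Lepr minimum, the log2 ratio of Cxcl12 was 0.16 and not -0.27. Kitl was at 1468 against 1998 CPM (-0.44), below in all 4 sets, and at -0.01 without the Lepr minimum.

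The fat-cell hormone gene Adipoq (-0.50), Igfbp4 (-0.58) and the angiopoietin gene Angpt1 (-0.66) were lower in direction in all 4 sets, all short of 2-fold. Pdgfra (0.01), Pdgfrb (0.04), the transcription factor Ebf1 (0.01) and Hp (0.04) were at the same level within 1.03-fold. Other transcription factors of the list were lower in direction and short of 2-fold, Foxc1 at -0.91 and Ebf3 at -0.85. Il7, the lymphocyte growth factor of the niche, went the other way at 647 against 207 CPM (1.64), with 607 against 158 CPM in N1, 850 against 254 in N2, 227 against 223 in P1 and 583 against 160 in P2. The groups differed in N1, N2 and P2 and hardly in P1. Bmp4, a bone morphogenetic protein, was lower at 96.0 against 252 CPM (-1.38), and its sets did not overlap. In the cells of order 1, described below, Bmp4 was at 324 against 320 CPM (0.02), with 0.18 in P1 and -1.01 in N2. Cxcl12 alone makes up several percent of a cell's counts, so levels in CPM of other genes depend on it slightly.

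Lineage genes gave few calls. Of 12 measured adipogenic genes 2 were higher, Cebpb at 27.2 against 7.3 CPM and Dgat2 at 31.5 against 10.9 CPM (1.45, and 0.61 without N2), and the median was -0.17. Of 11 osteogenic genes, Dlx5 was higher (1.84) with sets in both directions, Sp7 was lower (-1.24), and Runx2 was at 99.0 against 184 CPM (-0.89). None of 6 measured genes of Sca1-positive fibroblasts passed 2-fold (0 genes), and the 15 genes of that list summed to 2492 CPM in high-score and 2466 CPM in low-score cells. Of 2 measured cell cycle genes none passed either (0 genes).

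**Figure D4:**
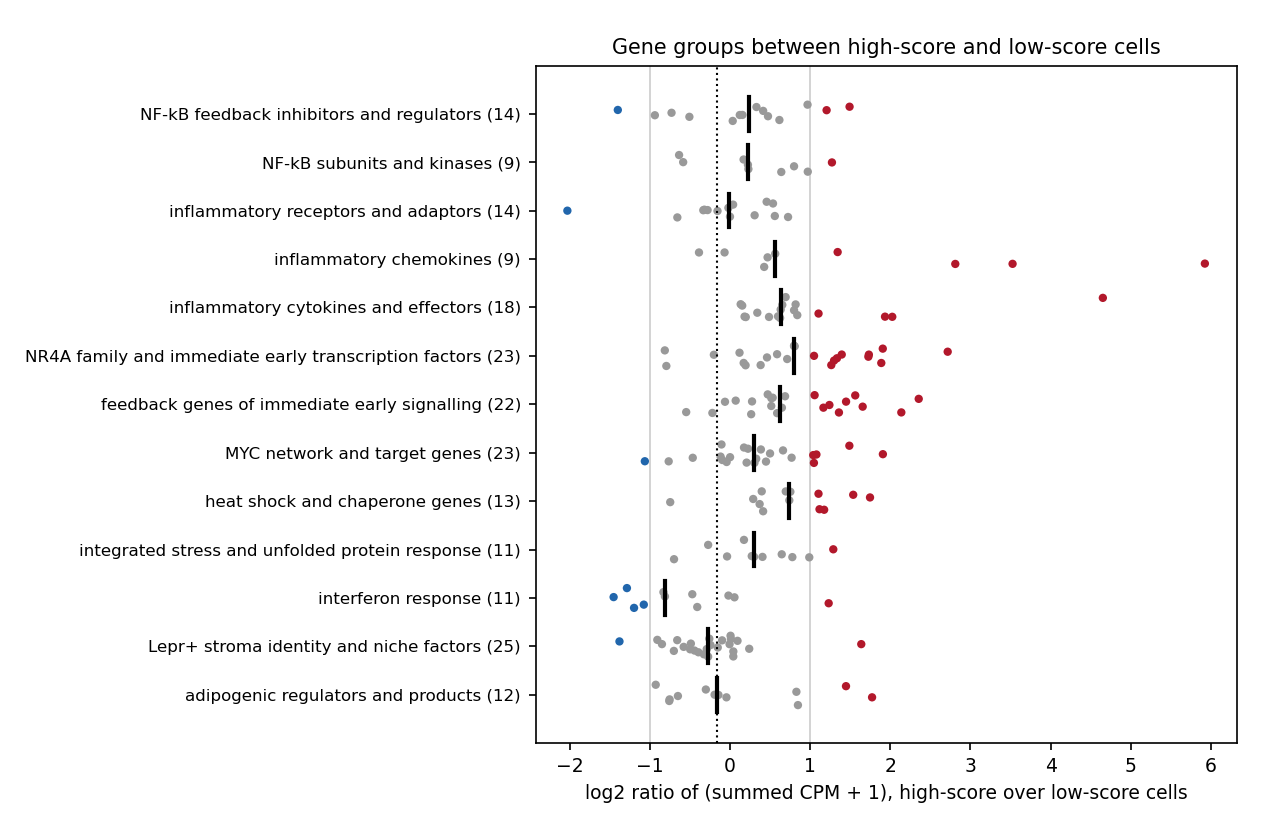
Log2 ratio of summed CPM + 1, high-score over low-score, for each measured member of 13 gene groups, with the number of members in brackets. Points are genes, red at 2-fold higher or more and blue at 2-fold lower or more, black bars are group medians, and the dotted line is the median of all measured genes at -0.17. The early factor group has 10 red points and the niche group centres on -0.27.

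Interferon response genes tended to the other side, with 1 higher and 4 lower of 11 measured and a median of -0.81, but none of these calls had the same sign in all 4 sets. Igtp, an interferon-induced GTPase (-1.20), was at 18.5 against 56.6 CPM in N1, 48.7 against 140 in N2, 68.8 against 15.4 in P1 and 15.1 against 10.6 in P2. It was lower in high-score cells of both Tomato- sets and higher in those of both Tomato+ sets. Gbp2 (-1.08), another interferon-induced GTPase, showed the same split in order 2. In low-score cells 1 cell held 54.4% of the counts of Igtp and 46.5% of those of Gbp2. Without that cell the ratios were -0.13 and -0.22, and without N2 they were -0.63 and -0.05. In order 1 Gbp2 went the other way, at 778 against 212 CPM (1.87), with 2.68 in the Tomato- set N2 and 2.67 in the Tomato+ set P1. Igtp in order 1 was at 0.05 in N2 and -0.79 in P1. Stat2 was lower at 18.7 against 53 CPM (-1.45, and -0.81 without N1). Irf7 passed 2-fold upwards (1.23), and without its top high-score cell its ratio was 0.00.

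Summed transcripts of blood and endothelial cells were low and did not mark the high-score cells, although erythroid markers reached 9909 CPM in 1 low-score cell. The 11 markers of pericytes and smooth muscle summed to 167 CPM in high-score and 197 CPM in low-score cells. The 12 endothelial markers summed to 7.5 CPM in high-score cells (4.0 to 11.9 over the sets, 5 markers at 0, Cdh5, Kdr and Tie1 among them) and 17.9 CPM in low-score cells (3.1 to 47.6). The 16 myeloid markers summed to 162 CPM (4.2 to 229) and 196 CPM (128 to 241), with Adgre1 at 0 in both groups. The 9 lymphoid markers in the table summed to 6.0 and 2.5 CPM, with Cd3g, Cd8a and Ms4a1 at 0 in both. All 4 measured globin genes were lower, at 2.00-fold or more, but 1 cell held 47.4 to 58.9% of their counts. The 9 erythroid markers summed to 82.9 against 54.2 CPM in N1, 60.5 against 495 in N2, 332 against 225 in P1 and 32.3 against 328 in P2, so their direction differed between sets. The part of these traces in the other differences was not tested, except that leaving out 14 cells with 5 or more counts of Ptprc or Pecam1 gave 315 higher and 655 lower genes.

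From all measured genes, members of the lists included, 12 in each direction were taken by a rule that ranks 2-fold genes by their smallest ratio over the sets. The higher ones were Ccl7, Cxcl1, Cxcl2, Rgs2, Ifrd1, Uap1, Neat1, Peg10, Trex1, Nop2, Jak3 and Slco1a4, of which Ccl7, Cxcl1, Cxcl2 and Rgs2 were already counted in the lists. Of these 12, 11 had sets that did not overlap, beside 1.41% of measured genes, but the ranking selects for this and nothing follows from the count. Ifrd1, a transcriptional co-regulator, had a median of 2415 CPM (296 to 15906) in high-score and 329 CPM (20.3 to 4808) in low-score cells. Its summed level was 3050 against 426 CPM in N1, 2800 against 953 in N2, 3677 against 722 in P1 and 4245 against 614 in P2, and its correlation with the score, 0.618, was above those of the other 9 non-scoring genes whose correlations were computed. Uap1, which makes the sugar donor for hyaluronan and N-glycans, was at 540 against 141 CPM (1.93), and Neat1, the long noncoding RNA of paraspeckles, at 1328 against 367 CPM (1.85). Jak3, a tyrosine kinase of cytokine receptors, was at 22.3 against 2.8 CPM (2.63), but without the Lepr minimum its ratio was 0.03. Nop2, a ribosomal RNA methyltransferase, was at 37.1 against 5.9 CPM (2.46), and Trex1, a cytosolic DNA exonuclease, at 83 against 15.8 CPM (2.32). Rgs2 was at 0.78 without the Lepr minimum, beside 2.14 with it.

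The 12 lower genes were all rare transcripts, among them Champ1, Exoc1, Secisbp2, Mdc1, Spg20, Prpf18, Cfap97, B3gnt5, Slc25a24, Tmem18 and Bphl. Champ1, a chromosome segregation gene, was at 0.105 against 35.7 CPM and had a count in 7.0% of high-score (1.9 to 17%) and 29.8% of low-score cells (18.4 to 43.4%). Exoc1, of the exocyst, was at 0.659 against 25.9 CPM. By the rule the 12 had the same sign in all sets, and its ranking favours sets without overlap. Sets did not overlap in 8 of the 12, and nothing follows from this count. Among all 607 lower genes, 326 had the same sign (5.09% of measured genes) and 150 had sets without overlap (2.34%). Each of the 12 was absent from most cells of both groups, and with whole-transcriptome amplification a few molecules can give many counts.

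Among the 1508 genes at 100 CPM or more, a set chosen after the values were seen, the 9 lower genes were Txnip, Slc40a1, Bmp4, Prkacb, P2ry1, Ptgfr, Gbp2, Cdc42ep1 and Idh1. Txnip, a thioredoxin-binding inhibitor of glucose uptake, was at 74.7 against 420 CPM in N1, 37 against 87.3 in N2, 35.4 against 232 in P1 and 20.4 against 1053 in P2. No high-score set reached a low-score set, the log2 ratio was -2.84, and 30.6% of its counts were in 1 cell. Slc40a1, the iron exporter ferroportin, was at 23.3 against 139 CPM in N1, 69 against 133 in N2, 44.3 against 184 in P1 and 33 against 269 in P2 (-1.89), also without overlap. Higher genes of this set that are in none of the lists included the glucose transporter Slc2a1 (1.18), hexokinase Hk2 (1.02, and 0.52 without P2), the glucosamine-forming enzyme Gfpt2 (2.42), the matrix protease Adamts1 (1.27), thrombospondin Thbs1 (1.57), the protease inhibitor Timp3 (1.63, and 0.70 without N1) and Vasn (1.54), a TGF-beta-binding membrane protein. For Adamts1, summed levels were 3371 against 904 CPM in N1, 3001 against 1635 in N2, 2353 against 915 in P1 and 4162 against 1667 in P2.

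The cells of order 1, which took no part in choosing these groups, gave 148 cells under the same minima and 49 high-score and 49 low-score cells by the same score. They are a weaker comparison, because score and set go together there. The high-score group held 41 cells of P1, 6 of N2 and 2 of P3, a further Tomato+ set, and the low-score group 15, 19 and 15. Tomato+ cells thus made up 87.8% of high-score cells (75.2 to 95.4%) and 61.2% of low-score cells (46.2 to 74.8%) in order 1, unlike the near-equal shares of order 2. Of 6755 genes measured in order 1, 856 (12.7%) were higher and 1519 (22.5%) lower. Beside that, 66 of the 67 abundant higher genes of order 2 were measured in order 1, and 53 of them (80.3%) were higher there too, with 64 above 0 and a median of 2.36. Of all 6755 genes, 2611 were above 0 in order 1. Within P1 alone, with 41 against 15 cells, 55 of the 66 were at least 2-fold higher (83.3%, beside 21.2% of all genes measured in order 1). The shares of all genes in order 1 include rarer transcripts, and no share was taken there for abundant genes alone. Of the 9 abundant lower genes, 5 were lower in order 1 (55.6%). Without the minimum of 100 CPM, 95 of 208 higher genes (45.7%) and 190 of 480 lower genes (39.6%) passed in order 1 in the same direction. Of the named genes, 6 of 8 higher ones measured in order 1 (75%) passed there, and 3 of 9 lower ones (33.3%).

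Gene groups in order 1 stood as follows, beside 12.7% higher and 22.5% lower among all genes measured there. Early factors gave 17 higher genes of 22 measured, feedback genes 14 of 19, cytokines and effectors 12 of 20, chemokines 5 of 8, heat shock and chaperone genes 8 of 14 and genes of NF-kB feedback 6 of 13. MYC network genes gave 4 of 22, with a median of -0.09. Interferon response genes gave 1 higher and 9 lower of 15, with a median of -1.24. Genes of Sca1-positive fibroblasts gave 5 lower of 8 with a median of -2.42, and the 3 measured erythroid genes were all lower, and the part of these cell types in the differences of order 1 was not tested. Nfkbia was at 2454 against 389 CPM (2.65), Cxcl1 at 931 against 36.3 CPM (4.64) and Fosb at 1483 against 213 CPM (2.79). Fos was at 7402 against 6701 CPM (0.14) and Egr1 at 2999 against 3919 CPM (-0.39), and within P1 their log2 ratios were -0.31 and -1.51. Within N2, with 6 against 19 cells, both were above 0, at 2.00 and 1.46, so the lower Fos and Egr1 of order 2 was not seen in that set. Nr4a2 was at -0.24 in order 1, and Arc, not measured there under the minima, at -3.97. Secisbp2, named above as lower, was higher in order 1 (2.15). Leaving Nr4a1 out of the score, it was 4.86-fold higher in order 1, and the 6 correlations of the scoring genes ran from 0.328 to 0.492.

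**Figure D5:**
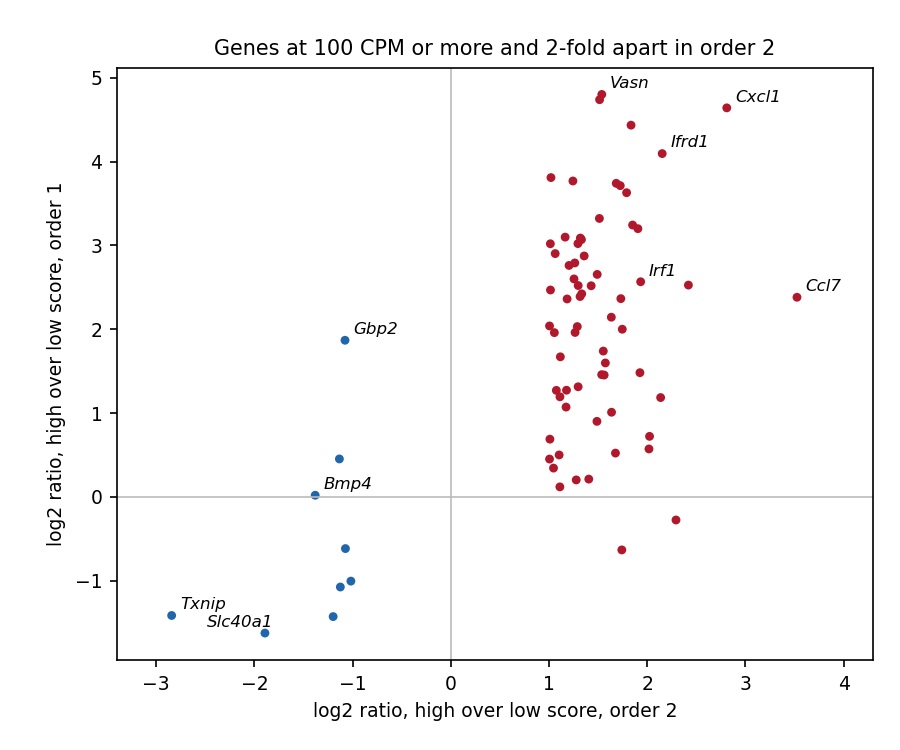
Log2 ratios, high-score over low-score, in order 2 (horizontal) and order 1 (vertical) for the genes at 100 CPM or more that were at least 2-fold apart in order 2 and measured in order 1, 66 higher in red and 9 lower in blue. Of the 66, 64 lie above 0 in order 1, and of the 9, 6 lie below. Among all 6755 genes measured in order 1, 2611 lay above 0 and 4144 below, so 6 of 9 is near the share of all genes.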

How the data were processed

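Per the file headers, the deposited table holds expected counts, estimates per gene that the authors made from reads, for 388 single cells (25000 genes), of which 5.77% of values above 0 in order 2 were not whole. Reads were counted after whole-transcriptome amplification, per the labels' protocols, with no molecular identifiers mentioned. The submitters' processing notes list StringTie 1.3.3b, HTSeq 0.6.0, HISAT and GRCm38, but the sources used here do not say what each did. Strand is not stated, so antisense overlaps cannot be told apart. Columns match sets by name, not single titles, and 0 were unused or duplicated.

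The score, split, sums, ratios (pseudocount 1 CPM) and intervals (95%) were computed with Python 3.11.15, numpy 2.4.6, pandas 2.3.3 and scipy 1.17.1, and the split and ratio steps were tested on simulated data. Eligible cells held 19881 to 1437645 counts. No doublet caller was run. The 24 named genes were 2-fold apart with 1 sign in all 4 sets, in mean log2(CPM + 1) and without the top cell, ranked by the smallest set ratio, without mitochondrial, ribosomal and predicted genes; list members were added, called ones first. The members, the 22 gene lists and the motifs were chosen with earlier results of these data known, and genes outside these rules after their values were seen. Of 382 list genes 3 were absent by symbol. Some genes that meet these rules are not reported here. Alternatives covered depth thinning, the Lepr minimum, the split, the score's genes, the pseudocount, the filter, each set left out, and, chosen after seeing the data, centring and a minimum of 100 CPM.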

Additional observations from a re-analysis of the deposited data

Results flagged for a closer look

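Igtp and Gbp2 are listed here because their high-to-low ratios had opposite signs in the Tomato- and Tomato+ sets of order 2. Igtp had a log2 ratio of -1.20 over all cells, and -1.56 in N1, -1.51 in N2, 2.09 in P1 and 0.48 in P2. Gbp2 stood at -1.08 over all cells, with -1.0, -1.80, 3.04 and 1.55 in the same order of sets. In order 1 Gbp2 was higher in high-score cells (1.87) and above 0 in the Tomato- set N2 (2.68) as in P1 (2.67), so its split was not seen there. Igtp was at -0.93 in order 1, with 0.05 in N2 and -0.79 in P1. As given above, a single low-score cell held a large share of each gene's counts, and without it neither ratio over all cells reached 2-fold. Both genes also changed sign in some of the alternatives given below. The P sets of order 2 held only 7 to 9 cells in each group, and the difference between Tomato- and Tomato+ sets was not tested.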

How the results depend on the processing

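Both the numbers of 2-fold genes and the size of single ratios depended on the settings. Beside 294 higher and 607 lower genes, the mean of the ratios within sets gave 472 and 1085, a pseudocount of 10 CPM 162 and 243, a filter of only 1 CPM 1141 and 2290, and a split of all 172 cells at the middle 124 and 288. Without a Lepr minimum 341 were higher and 1209 lower, which took the share of higher among all calls from 32.6% to 22%. At 100 CPM or more the counts were 67 and 9 (88.2% higher), and after centring on the median gene 408 and 408 (50%), both settings chosen after seeing the data. Leaving out 1 set gave 321 to 480 higher and 637 to 918 lower genes, with N2 the set whose loss moved both counts by over 1.5 times (480 and 918). Thinning each cell to 100000 counts, which left out 3 cells, gave 266 and 586. In order 1, setting counts under 1% of a pool's maximum to 0 gave 957 lower genes in place of 1519. The cause of these shifts was not tested.

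The 24 named genes had been chosen for the same sign in every set, in the mean per cell and without the top cell. Some alternatives, such as leaving out a set or the top cell, measure these properties again. Keeping the sign was thus partly fixed by the choice of genes. The named genes kept their sign in 24 of 24 cases over 20 alternatives, and 19 stayed at least 2-fold apart throughout. Among those that did not, Jak3 was at 0.03 and Rgs2 at 0.78 without a Lepr minimum, and Nop2 at 0.77 and Prpf18 at -0.92 when the cells were split at the middle. Ratios that stayed past 2-fold could still move far, with Cxcl2 between 1.89 and 6.35 and Champ1 between -5.39 and -2.18. Of 124 called genes examined, 118 kept their sign but only 35 stayed past 2-fold in every alternative. Splitting at the middle left 54 past 2-fold and the score without Nr4a1 left 90. Whichever set was left out, 69 stayed past 2-fold, with 93 without N1, 103 without N2, 112 without P1 and 109 without P2. Without N1, Hsph1 was at 0.81 beside 1.54. The genes that changed sign did so as follows: Ptgs2 to -1.03 with the score without Ccl2, Irf7 to -1.28 there, to -0.31 without Tnfaip3 and to -0.035 at a Lepr minimum of 2000 CPM, Igtp to 0.077 when the outer 25% of cells were compared, Dgat2 to -0.16 without a Lepr minimum, Gnl3 to -0.011 without N1 (up to 1.71 with another set left out), and Gbp2 to 0.45 with the mean of set ratios and 0.42 with the score without Nr4a1. The Tomato+ share stayed within 22.8 to 29.1% of high-score and 25.4 to 34.9% of low-score cells. No paired analysis was possible because the table's columns carry no cell number that matches samples across sets and no test was made. With 7 to 9 cells in each group of P1 and P2, their values rest on few cells.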
